A study of Mus musculus with 3 samples.

Results

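The miR-183 cluster is a group of 3 miRNA genes, Mir183, Mir96 and Mir182, that lie close together on the minus strand of mouse chromosome 6. Its reads were taken as all alignments on that strand whose 5′-start fell between positions 30115800 and 30120200 of the mm9 genome build, which the submitters' processing notes name. The 3 genes are among 1005 miRNA hairpins of the RefSeq sequence table. Small RNA was sequenced from MIN6 cells, a mouse insulinoma line that secretes insulin and is used in place of pancreatic beta cells. There were 3 biological replicates, each grown in medium with 25 mM glucose, and no other condition. The libraries held 9269795, 10816006 and 10218743 mapped reads in replicates 1, 2 and 3. Levels are given as reads per 1000000 mapped reads (RPM), so that a limit of 3 reads corresponds to 0.324, 0.277 and 0.294 RPM.

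The hairpins of such a cluster are transcribed together as a long primary transcript. Drosha cuts each hairpin out and thereby sets the 5′-end of the 5p arm, and Dicer then removes the loop and sets the 3′-end of the 5p arm and the 5′-end of the 3p arm. The seed, bases 2 to 8 of the mature miRNA, is the stretch that chiefly pairs with target RNAs, so a read that starts 1 base later carries a different seed. The cluster is best known for its high expression in sensory cells of the eye, ear and nose.

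The mismatches recorded in the alignments placed each hairpin by sequence. In 300 pairs of a 5′-start and a base of the hairpin where reads recorded a mismatch, which cover 136 bases of the 3 hairpins and include the pairs used for the placement, the recorded base was the hairpin's own base in 0 pairs. On mm9, Mir182 spans positions 30115918 to 30115992, Mir96 30119446 to 30119551 and Mir183 30119668 to 30119737. There are 3453 bases between Mir182 and Mir96 and 116 bases between Mir96 and Mir183. In the GENCODE annotation of the later build GRCm38, each of the 3 is a miRNA gene of its own that overlaps 0 other genes. A start is named by its distance from the reference start of the arm, so miR-183-5p+1 begins 1 base downstream of miR-183-5p. The sequences that the results turn on are printed from RefSeq (GRCm38.p6), with the seed in capitals. The first 4 are the abundant 5p forms, the next pair are the reference and the prevailing form of the Mir183 3p arm, and the last is the loop of Mir182, which has no seed.
miR-182-5p: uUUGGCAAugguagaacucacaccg
miR-96-5p: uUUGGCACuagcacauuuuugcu
miR-183-5p: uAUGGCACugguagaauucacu
miR-183-5p+1: aUGGCACUgguagaauucacug
miR-183-3p: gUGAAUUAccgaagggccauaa
miR-183-3p+1: uGAAUUACcgaagggccauaa
Mir182 loop: guaagguaaugggacccg

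The 3 reference 5p arms are related in sequence. Over 22 bases aligned from the 5′-end, miR-182-5p and miR-183-5p share 18 bases, miR-183-5p and miR-96-5p 13, and miR-182-5p and miR-96-5p 12. Counted from 1 at the 5′-end, the seed of miR-182-5p differs from that of miR-96-5p by A8C, and the seed of miR-183-5p differs from that of miR-96-5p by A2U. Between miR-182-5p and miR-183-5p the seed differs at both sites, U2A and A8C. The shifted form miR-183-5p+1 has the seed UGGCACU, which shares the 6 bases UGGCAC with the seeds of miR-96-5p and of miR-183-5p. In the RefSeq table, 1 other mature miRNA has the seed of miR-96-5p, namely miR-1271-5p, and 0 others have the seeds of miR-182-5p, miR-183-5p or miR-183-5p+1. No start could be matched to miR-1271-5p, so its level was not measured. The 3p arm miR-96-3p shares its seed with miR-3475-5p, and the scarce start miR-183-5p+4 shares its seed with miR-12199-3p. These could not be matched either.

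Together the cluster took 4.67% of the mapped reads in replicate 1, 4.31% in replicate 2 and 4.20% in replicate 3, or 4.39% ± 0.248 (SD, n = 3). The 95% Wilson intervals were 4.66% to 4.69%, 4.30% to 4.32% and 4.19% to 4.21%. These intervals cover counting error only, since amplified reads are not independent molecules, and they are far narrower than the spread between replicates. Fewer expressing cells and less RNA per cell cannot be told apart in such libraries. Without the most abundant start of the libraries in the denominator, the share was 6.80%.

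The most abundant start lies in the hairpin of Mir375, a miRNA gene typical of endocrine pancreas, with 334275, 357402 and 371065 RPM. Another endocrine miRNA, miR-7a-5p, reached 420, 439 and 355 RPM over 2 loci. The acinar miRNAs miR-217-5p and miR-216a-5p and the blood cell miRNAs miR-142a-3p, miR-142a-5p, miR-223-3p and miR-451a were looked up in the same way and could not be matched to a start. Matching needs reads with mismatches, so a miRNA with few reads cannot be placed, and the levels of these 6 were not measured. Planned markers of mesenchyme, hepatocytes, muscle and neurons are not reported here.

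The reads of the cluster fell at 58 starts, of which 22 had at least 10 reads in every library. Of these 22 starts, 20 lay on an arm, 1 in the loop of Mir182 and 1 between the hairpins. The miRNA miR-182-5p prevailed. At its reference start it had 39609 RPM in replicate 1, 35865 RPM in replicate 2 and 35746 RPM in replicate 3, with a mean of 37073 ± 2197 RPM (SD, n = 3). It ranked 2 among all starts of the genome in each library. The starts nearest to it in level outside the cluster were miR-27b-3p at 31553 ± 1363 RPM and miR-99b-5p at 31246 ± 4580 RPM (SD, n = 3). Each of these had a lower value than miR-182-5p in all 3 libraries.

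The reference start of miR-183-5p had 4734, 4811 and 4168 RPM, and miR-183-5p+1 had 1832, 1889 and 1596 RPM in replicates 1, 2 and 3. They ranked 21, 22 and 24, and 49, 51 and 53, respectively. The miRNA miR-96-5p had 318, 312 and 266 RPM and ranked 170, 171 and 193. The levels of these 4 starts therefore descended in the same order in each library, with no overlap between neighbors. Replicate 3 had the lowest value at all 4 starts.

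**Figure D1:**
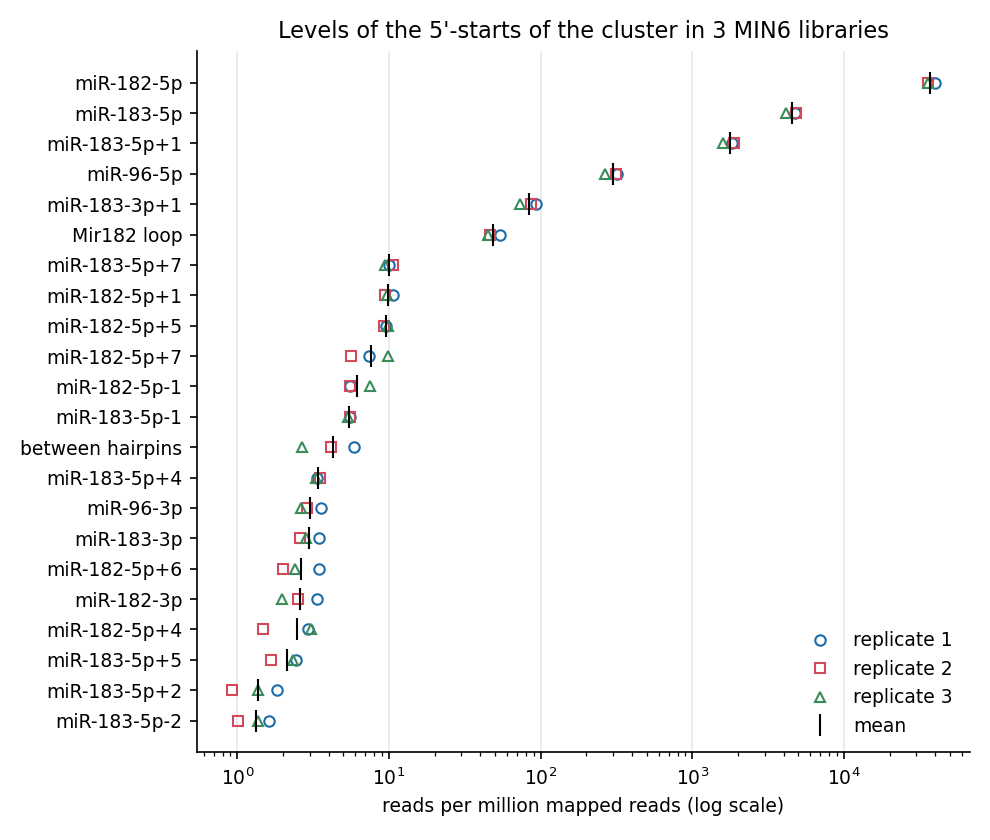
Level of each 5′-start of the cluster with at least 10 reads in every library, in RPM on a log axis, with 1 symbol per replicate and a bar for the mean. The levels span from 1.34 RPM at miR-183-5p-2 to 37073 RPM at miR-182-5p, and the 4 most abundant starts all lie on 5p arms.

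By arm, miR-182-5p took 84.9%, 83.3% and 85.3% of the cluster's reads (84.5% ± 1.02, SD, n = 3). The miR-183-5p arm took 14.1%, 15.6% and 13.8% (14.5% ± 0.971, SD, n = 3), and miR-96-5p took 0.681%, 0.726% and 0.636% (0.681% ± 0.0448, SD, n = 3). Replicate 2 had the lowest share of miR-182-5p and the highest of both others. The ratio of miR-182-5p to miR-183-5p reads was 6.02, 5.34 and 6.18, and that of miR-182-5p to miR-96-5p was 125, 115 and 134. The ratio of miR-183-5p to miR-96-5p was 20.7, 21.5 and 21.7. Its coefficient of variation was 2.43%, compared with 7.64% and 7.72% for the ratios of miR-182-5p to the others. The latter ratios have miR-182-5p in common, so their spreads are not independent. With 3 libraries of 1 condition these spreads were not tested against each other. How efficiently each RNA was captured in the libraries was not tested either, so the ratios compare reads.

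The 3p arms were scarce. Of the reads on the arms of each hairpin, the 3p share was 0.00925%, 0.00773% and 0.00574% for Mir182, from 34, 30 and 21 reads. It was 1.11%, 0.937% and 0.980% for Mir96, from 33, 32 and 27 reads, and 1.44%, 1.31% and 1.31% for Mir183, from 895, 969 and 783 reads. The means were 0.00757% ± 0.00176, 1.01% ± 0.0878 and 1.36% ± 0.0769 (SD, n = 3). The 5p arm thus held nearly all arm reads of each hairpin, and Mir182 had the lowest 3p share in every library. Among exact alignments alone, the 3p share of Mir183 was 0.842%, because fewer of the 3p reads than of the 5p reads were exact. That of Mir96 was 0.908%, so the order of the mean shares of Mir183 and Mir96 was reversed. Of the reads at miR-183-3p+1, 47.7% ± 1.32 (SD, n = 3) were exact, compared with 81.8% ± 0.277 at miR-183-5p.

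Mir182 gave more reads from its loop than from its 3p arm. The start directly after the last base of the RefSeq miR-182-5p had 501, 499 and 462 reads, or 54.0, 46.1 and 45.2 RPM. Of these reads, 99.7%, 99.7% and 99.9% covered exactly the 18 bases between the mature arms, whose sequence is printed above as the Mir182 loop. There were 14.7, 16.6 and 22 loop reads for every read of the whole 3p arm, which had 34, 30 and 21 reads over all its starts. The corresponding start of the 19-base loop of Mir96 had 1, 7 and 4 reads, and that of the 17-base loop of Mir183 had 1, 0 and 1 reads. A whole loop was therefore recovered in quantity only from Mir182 among the 3 hairpins. All 3 loops lie within the range of 14 to 41 nt of the mapped reads.

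The position of the 5′-end differed between the arms. On the miR-183-5p arm, 28.2%, 28.5% and 28.0% of the reads began at a base other than the reference start (28.2% ± 0.233, SD, n = 3). Nearly all of them were miR-183-5p+1, with 0.387, 0.393 and 0.383 reads for each read of miR-183-5p. On the miR-182-5p arm the shifted share was 0.107%, 0.102% and 0.125% (0.111% ± 0.0121, SD, n = 3), and on the miR-96-5p arm it was 0.169%, 0.335% and 0.281% (0.262% ± 0.0844, SD, n = 3). The miR-96-5p value rests on 5, 11.3 and 7.67 reads, and it was 0.0212% with reads of 18 to 25 nt only, so most of these reads lay outside that range of lengths. The spread between replicates of the miR-183-5p arm was far smaller than its distance from both other arms.

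The same measure was taken at 185 abundant starts outside the cluster. An RNA whose reads were divided among several loci counts as a separate start at each locus, here and in the later comparisons. These had at least 1000 reads in every library and a most frequent length of 20 to 24 nt, and each was the most abundant start within 8 bases. Not all of these starts could be named from a miRNA hairpin. Here the shifted share is that of reads at the 3 bases on either side of the start. Its median was 1.62%, and it was 28.0% at miR-183-5p and 0.0484% at miR-182-5p, whose own most frequent length of 25 nt lies outside the range set for the other starts. Of the 185 starts, 10 had a higher share than miR-183-5p and 177 had a higher share than miR-182-5p. At miR-96-5p there were 0, 1 and 0 such reads, fewer than the limit of 3, so it was not ranked. The 10 starts with higher shares than miR-183-5p had mean levels of 137.6 to 394 RPM, compared with 4571 ± 351 RPM (SD, n = 3) at miR-183-5p.

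**Figure D2:**
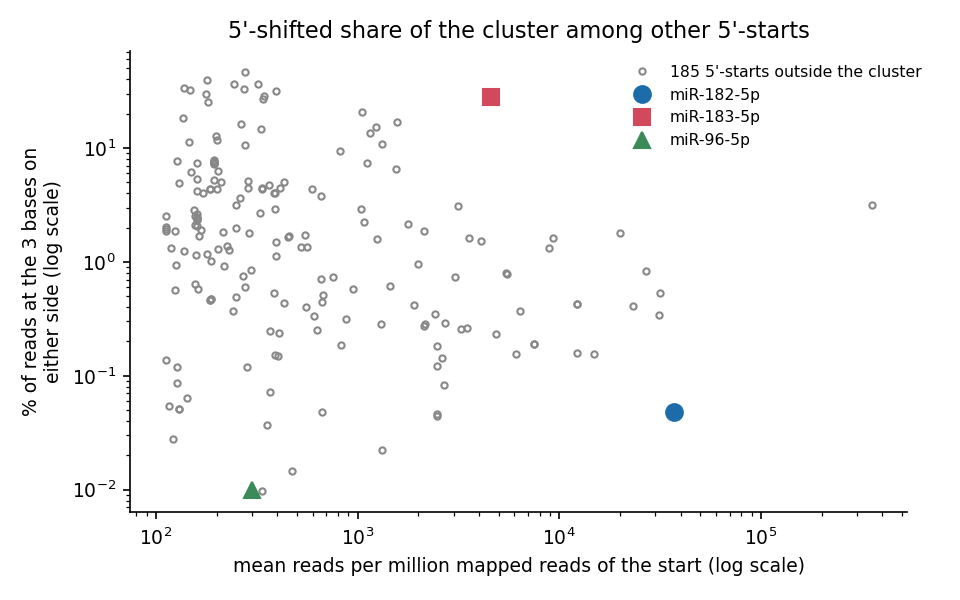
Share of reads that began at the 3 bases on either side of a start (mean of 3 libraries, log axis) against the level of the start in RPM (log axis), for 185 starts outside the cluster and the 3 reference 5p starts. miR-183-5p lies at 28.0% and miR-182-5p at 0.0484%; the point of miR-96-5p rests on 1 read in 1 of the 3 libraries.

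The 3p arm of Mir183 was shifted as well. The RefSeq start of miR-183-3p had 32, 28 and 29 reads, while miR-183-3p+1, which begins 1 base downstream, had 861, 937 and 749 reads. The ratio was 26.9, 33.5 and 25.8, or 28.7 ± 4.13 (SD, n = 3). The shifted form was thus the prevailing 3p form in each library, with the seed GAAUUAC in place of UGAAUUA. On the arms of Mir182 and Mir96, the most abundant start was the RefSeq start of each 3p arm, with 31, 27 and 20 reads of miR-182-3p and 33, 31 and 27 reads of miR-96-3p.

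Reads that began 1 base upstream of a reference 5p start were few. There were 51, 60 and 77 reads of miR-182-5p-1 and 51, 60 and 55 of miR-183-5p-1. Of the miR-182-5p-1 reads, 49, 58 and 70 had a first base that did not match the genome, which was the substitution U1C in 49, 58 and 69 of them. At miR-183-5p-1, a mismatching first base was found in 12, 11 and 12 reads. The 2 forms of similar abundance therefore differed in whether their additional 5′ base matched the genome, and only 4.15% ± 0.952 (SD, n = 3) of the miR-182-5p-1 reads were exact alignments.

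The 3′-ends varied more than the 5′-ends. The most frequent length of miR-182-5p was 25 nt, in 32.0%, 31.4% and 31.7% of its reads, followed by 26 nt in 18.4%, 18.8% and 17.5%. Lengths of 23 and 24 nt made up 15.6% ± 0.228 and 15.5% ± 0.0728, and 22 nt made up 10.6% ± 0.190 (SD, n = 3). In contrast, 71.6%, 70.04% and 72.1% of the miR-96-5p reads were 23 nt long. For miR-183-5p the most frequent length was 22 nt, in 45.0%, 43.8% and 43.3% of the reads, with 34.0% ± 0.319 at 23 nt and 13.3% ± 0.235 at 24 nt (SD, n = 3). The mean length was 24.1 nt for miR-182-5p, 22.6 nt for miR-96-5p and 22.5 nt for miR-183-5p. At 207 starts outside the cluster with at least 1000 reads in every library and a most frequent length of 20 to 24 nt, the most frequent length held a median of 71.7% of the reads. It held a larger share than in miR-183-5p at 180 of them and than in miR-96-5p at 108. Of the 207 starts, 147 were named from a miRNA hairpin. The range of 20 to 24 nt leaves out miR-182-5p with its 25 nt. The 2 other named starts with a most frequent length of 25 nt were miR-700-5p and miR-541-5p, where this length held 29.4% and 44.1% of the reads, compared with 31.7% in miR-182-5p.

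**Figure D3:**
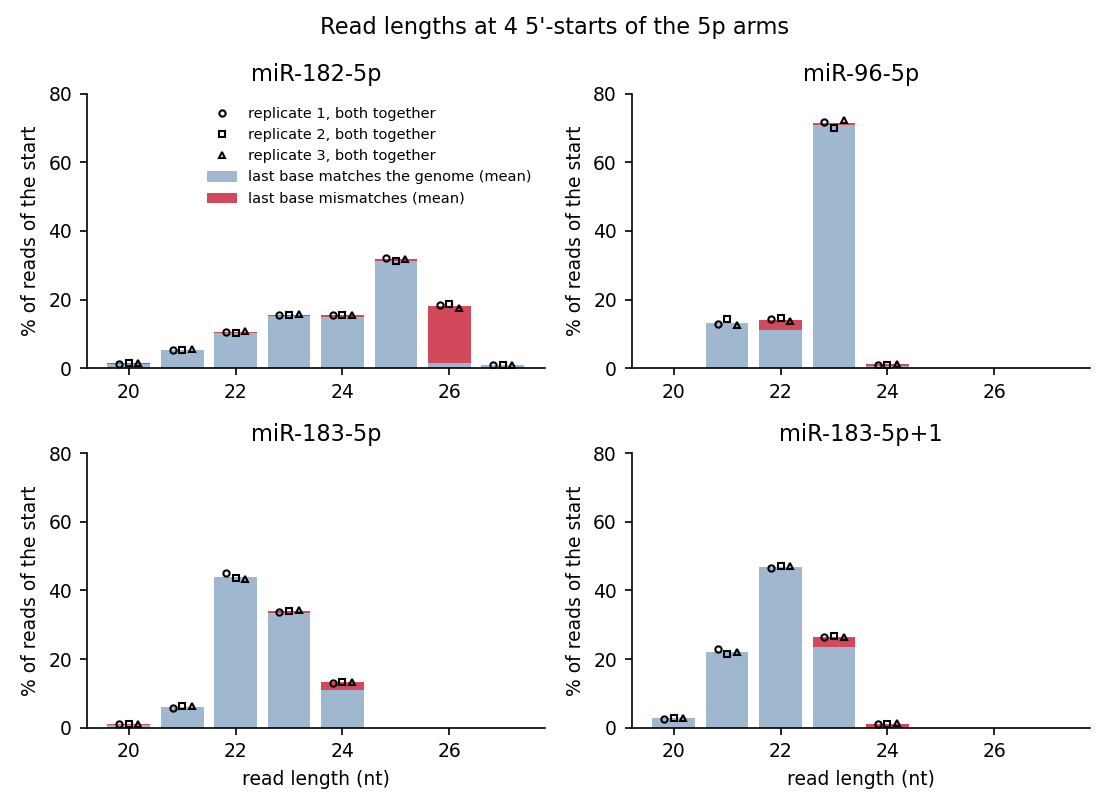
Read lengths in nt at 4 starts of the 5p arms, as percent of the reads of the start; bars are means of 3 libraries, divided by whether the last base matched the genome, and symbols are the replicates. The reads of miR-96-5p gather at 23 nt, while those of miR-182-5p spread from 21 to 26 nt, with a mismatching last base in 91.5% of the 26 nt reads.

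The 2 starts of miR-183-5p also differed in their 3′-ends. Among reads of miR-183-5p whose last base matched the genome, 45.6% ± 0.899 ended at the RefSeq 3′-end, 34.8% ± 0.347 ended 1 base further and 11.5% ± 0.243 ended 2 bases further (SD, n = 3). For miR-183-5p+1 these shares were 23.1% ± 0.702, 49.1% ± 0.300 and 24.6% ± 0.234. The reads that began 1 base later thus also ended further downstream, and 22 nt was the most frequent length of both forms.

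A base at the 3′-end that does not match the genome can be an addition made after processing. Of the miR-182-5p reads, 18.8%, 19.3% and 17.96% ended in a mismatching base (18.7% ± 0.658, SD, n = 3). The share was 3.78% ± 0.0944 for miR-183-5p, 4.67% ± 0.190 for miR-183-5p+1 and 3.94% ± 0.175 for miR-96-5p. With reads of all lengths it was thus far higher in miR-182-5p than in the other 5p forms, in each library. With reads of 18 to 25 nt only, miR-182-5p had the lowest share, with 2.04% for miR-182-5p, 3.64% for miR-183-5p, 4.64% for miR-183-5p+1 and 3.94% for miR-96-5p. The base itself differed too. In miR-182-5p a terminal uridine was found in 16.1%, 16.4% and 15.2% of the reads and a terminal adenosine in 2.44%, 2.54% and 2.45%. In miR-183-5p, uridine was found in 0.900% ± 0.0542 and adenosine in 2.30% ± 0.0507, and in miR-96-5p uridine was found in 0.492% ± 0.145 and adenosine in 3.13% ± 0.0768 (SD, n = 3). With mismatches at any of the last 3 bases counted, the share of miR-183-5p was 10.5%, since a frequent mismatch at its position 20, described below, then counts as terminal in reads of up to 22 nt.

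The uridine of miR-182-5p stood mostly behind the full-length form. Reads whose last base to match the genome was base 25, the RefSeq 3′-end, with or without a tail behind it, made up 48.6%, 48.4% and 47.4% of all miR-182-5p reads. Of these, 30.7%, 31.5% and 29.5% carried 1 further uridine where the genome has guanine, and 3.89% ± 0.0824 (SD, n = 3) carried 1 adenosine. These tailed reads were 26 nt long and are left out when only reads of 18 to 25 nt are counted. For forms of 20 to 24 matching bases, the share with 1 uridine was between 1.03% and 3.88%. Uridine was also found behind later last matching bases, in 8.48% ± 0.699 of the reads at base 27 and 19.6% ± 4.22 at base 28. These had at least 3554 and 286 reads in each library. A tail of UU behind base 25 would end on the uridine of the genome at base 27. Such reads are counted at base 27, and UU was recorded in 0% after 25 bases. Longer templated forms and full-length forms with longer uridine tails were therefore not told apart there. An addition that equals the next base of the genome cannot be seen. In miR-182-5p this hides adenosine after 19, 21, 27 and 28 bases and uridine after 26 bases. It hides uridine after 22 and 23 bases of miR-96-5p and after 21 and 23 bases of miR-183-5p, so the terminal uridine shares of these miRNAs leave out any such addition at ends that many of their reads have.

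**Figure D4:**
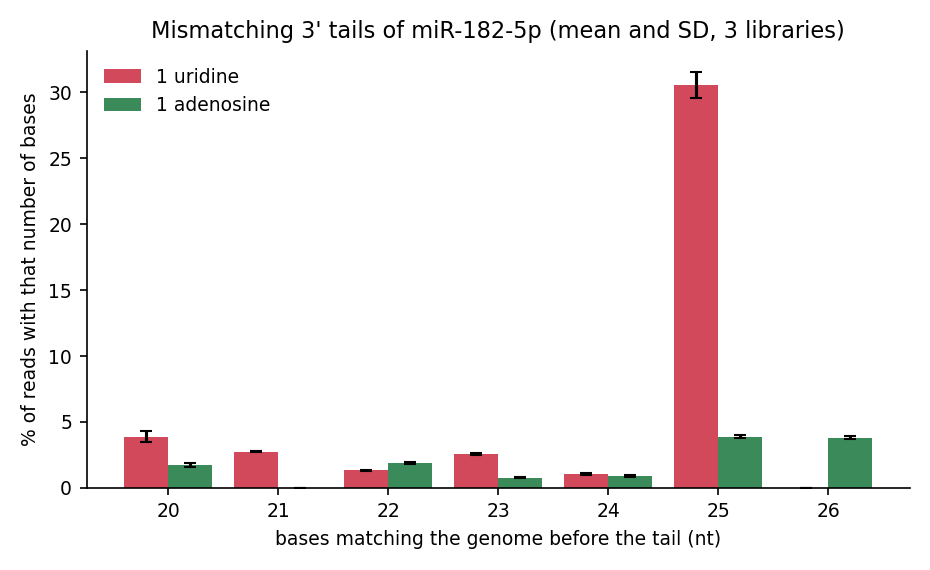
Share of miR-182-5p reads with a mismatching tail of 1 uridine or 1 adenosine, by the number of bases before the tail; bars are means of 3 libraries and error bars are SD. The uridine share reaches 30.6% after 25 bases and is at most 3.88% after 20 to 24 bases; the genome itself has adenine after 21 bases and uridine after 26, where that addition cannot be seen.

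Among the 207 starts outside the cluster, the terminal uridine share had a median of 3.13%, with quartiles of 0.289% and 11.96%. These starts include copies of the same RNA at several loci, such as those of miR-24-3p, so the medians and ranks count such RNAs repeatedly. Of the 207 starts, 147 were named from a miRNA hairpin, and several of the unnamed ones are also near-equal copies. The medians and ranks therefore do not place the members among known miRNAs alone. The uridine share was higher than in miR-182-5p at 41 of them, than in miR-183-5p at 138 and than in miR-96-5p at 151. The median of the terminal adenosine share was 1.22%, and it was higher than in miR-182-5p at 51 starts, than in miR-183-5p at 58 and than in miR-96-5p at 41. With reads of all lengths, miR-182-5p thus lay in the upper part of the range for uridine, and all 3 lay above the median for adenosine. The most frequent length of miR-182-5p, 25 nt, lies outside the range set for the other starts. The other named starts of that length, miR-700-5p and miR-541-5p, had terminal uridine shares of 44.3% and 7.25%, compared with 15.9% in miR-182-5p. The uridine rank of miR-182-5p rests on its reads longer than 25 nt, since with reads of 18 to 25 nt only its terminal mismatch share over all bases was 2.04%. The other starts were not ranked under this limit. The visible uridine of miR-183-5p and miR-96-5p lay in the lower part, but their most common ends include those where uridine is hidden. After 21 bases of miR-96-5p, where it can be seen, uridine was found in 2.42% ± 0.925 (SD, n = 3).

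The tails depended on where a form ended. In miR-96-5p, 1 adenosine was carried by 15.8% ± 1.40 of the reads with 21 matching bases and by 0.415% ± 0.259 of those with 23 (SD, n = 3). Forms of miR-183-5p with 23 matching bases and of miR-183-5p+1 with 22 end at the same base of the genome, and adenosine was found in 5.11% ± 0.0558 and 5.76% ± 0.0951 of them. At the following base, where uridine additions can be seen, uridine was found in 2.19% ± 0.147 and 3.18% ± 0.161. Forms counted at that base can include shorter reads with a tail of UU, whose last base matches the genome there. Where the forms ended 1 base before the first of these ends, uridine was found in 0.831% ± 0.0824 of the miR-183-5p form with 22 matching bases and in 0.501% ± 0.145 of the miR-183-5p+1 form with 21. Neither start thus had the higher share at each of these ends.

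The 3p form miR-183-3p+1 had the highest terminal mismatch share of the starts examined for tails in the cluster. It was 35.8%, 33.5% and 33.8%, of which uridine made up most, with 30.8%, 27.9% and 28.3% of all reads of the start. Of the reads with 21 matching bases, which end at the RefSeq 3′-end, 33.6% ± 0.716 carried 1 uridine, and of those with 22 matching bases 11.1% ± 0.408 did (SD, n = 3). These shares rest on at least 410 and 260 reads in each library.

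Mismatches before the last base were concentrated at a few adenines that were read as cytosine. In miR-182-5p the substitution A20C was present in 12.8%, 12.8% and 12.7% of the reads longer than 20 nt, and in miR-183-5p it was present in 12.9%, 12.5% and 12.5%. In miR-96-5p, A10C was present in 14.6%, 14.1% and 15.5%. The shifted form miR-183-5p+1 had 2 such sites, A6C in 8.39%, 7.53% and 8.02% and A12C in 18.7%, 18.5% and 18.7%. Position 6 lies in the seed. The same base of the genome is position 7 of miR-183-5p, which also lies in the seed, and A7C was present there in 0.482% ± 0.0757 (SD, n = 3). At this base of the genome the mismatch was thus frequent in reads from the shifted start and rare in reads from the reference start. Of the miR-183-5p+1 reads, 68.6% ± 0.528 were exact, compared with 81.8% ± 0.277 for miR-183-5p.

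Starts outside the cluster showed the same positions. Among named starts with an adenine there and at least 1000 reads covering it in every library, the median share read as cytosine was 9.08% at position 6 (30 starts), 12.6% at position 10 (32 starts), 18.7% at position 12 (28 starts) and 8.21% at position 20 (22 starts). At position 7 it was 0.380%, and at positions 2, 3 and 5 it was 0%. At position 24, where no member has an adenine, it was 9.79% over 2 starts. At position 20, miR-182-5p and miR-183-5p lay above the highest of the 22 starts, 12.03%, and at the other 3 positions the members lay within the range of the other starts. The source of these mismatches was not tested. The uridine tail of miR-182-5p was compared only between reads with A20C and reads with no internal mismatch, and the difference was not tested. Among forms with 25 matching bases before the tail, uridine was carried by 30.3%, 30.9% and 30.3% of the reads with A20C and by 30.8%, 31.6% and 29.2% of the reads with no internal mismatch. The share was lower with A20C in replicates 1 and 2 and higher in replicate 3.

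**Figure D5:**
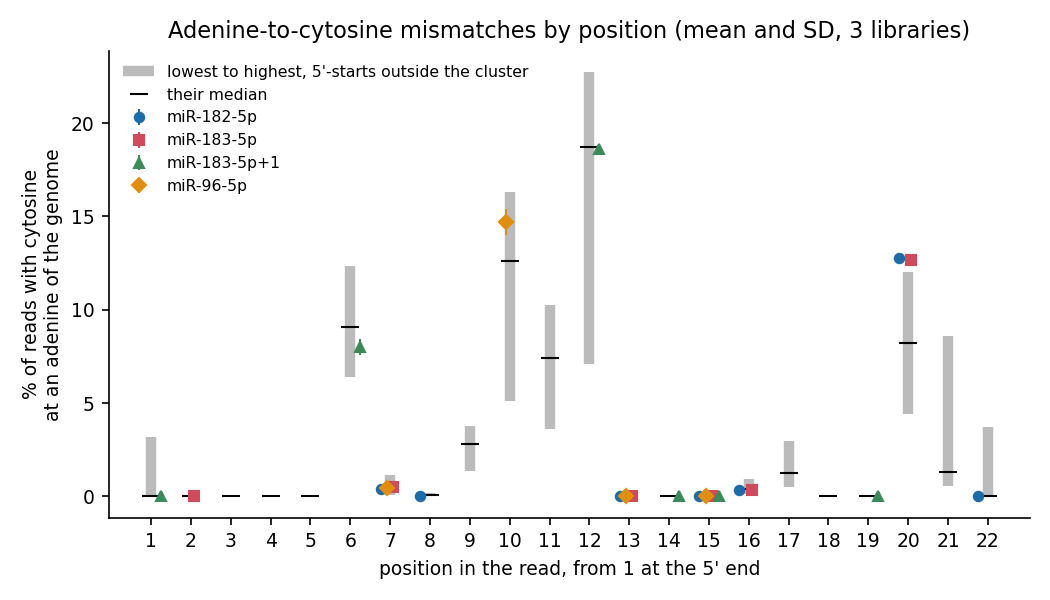
Share of reads with cytosine at an adenine of the genome, in percent, by position in the read; grey bars span the lowest to the highest of named starts outside the cluster, black marks are their medians, and symbols are the mean and SD over 3 libraries for 4 starts of the cluster. Among the positions drawn, the medians outside the cluster are above 2% at positions 6, 9 to 12 and 20, and the members with an adenine at position 6, 10, 12 or 20 had high shares there.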

How the data were processed

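The deposited files list alignments with expected counts, which the authors made from reads of small RNA libraries. They trimmed the 3′-adaptor with cutadapt and mapped reads of 14 to 41 nt to mm9 with Bowtie, then placed the remaining reads, with mismatches, near regions already covered. Values are not always whole, because the authors split a read with more than 1 best placement into fractions. Alignments without mismatch are written with an end 1 base early, which was corrected. Reads were grouped by 5′-start and divided by all mapped reads. An arm runs from 3 bases before the RefSeq mature start to its 3′-end. Starts elsewhere were named where mismatches gave at least 20 bits for a hairpin and none opposed it. Of 388 starts, 153 were named, and 0 with every hairpin reversed. Python 3.11.15, pandas 2.3.3 and numpy 2.4.6 were used, and the summaries were tested on simulated alignments. With 1 condition no test between samples was made. The members and lists were chosen with earlier results of these data known. Named were the 6 arms, cluster starts with at least 10 reads in every library, the 3 most abundant starts elsewhere and miRNAs sharing a seed. Alternatives were exact alignments, reads of 18 to 25 nt, whole-number values, a wider terminal window, another denominator, and each replicate left out.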

Additional observations from a re-analysis of the deposited data

Results flagged for a closer look

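Reads on the plus strand, opposite the hairpins, lay outside the measurements above and exceeded the limit of 3 reads. Opposite Mir183 there were 11, 11 and 21 reads in replicates 1, 2 and 3, compared with 61996, 73702 and 59936 reads of the hairpin itself. They were 22 to 25 nt long and began at positions 30119672 to 30119674 of mm9, opposite the 3′-end of miR-183-3p, which lies at position 30119672. Opposite Mir182 there were 2, 3 and 4 reads, of which those of replicate 3 exceeded the limit, and they began at positions 30115924 and 30115925, next to the base opposite the 3′-end of miR-182-3p at 30115923. Opposite Mir96 there were 0 reads in each library. The source of these reads was not tested.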

How the results depend on the processing

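Of 43 values of 14 results under other processing, 21 moved by more than 1 SD between replicates and 5 by over 1.5 times. With each replicate left out in turn, 0 of 42 values moved by over 1.5 times. The order of the 3 arms by their share of cluster reads was the same under each alternative. With exact alignments only, the shares of cluster reads were 82.6% for miR-182-5p, 16.3% for miR-183-5p and 0.781% for miR-96-5p. The shifted shares were then 0.0863% for miR-182-5p and 24.8% for miR-183-5p. The 3p shares were then 0.00971% for Mir182, 0.842% for Mir183 and 0.908% for Mir96, so that Mir183 went from above Mir96 to below it. With reads of 18 to 25 nt only, the shares of cluster reads were 81.5%, 17.3% and 0.814%, the shifted share of miR-96-5p was 0.0212%, the terminal mismatch share was 2.04% for miR-182-5p and 3.64% for miR-183-5p, so that miR-182-5p went from the highest of the 5p forms to the lowest, and the 3p share of Mir182 was 0.00942%. With mismatches at any of the last 3 bases, the terminal share was 21.7% for miR-182-5p, 10.5% for miR-183-5p, 4.93% for miR-183-5p+1 and 4.14% for miR-96-5p. The cluster share of mapped reads was 5.24% with whole-number values only and 6.80% without the most abundant start in the denominator. Depth limits the 3p arms of Mir182 and Mir96, which rest on 21 to 34 reads in each library. No paired analysis was possible because the labels give only 1 condition.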

Other observations

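Short reads that began inside the 5p arms made up several of the lesser starts. The starts miR-183-5p+7 and miR-182-5p+7 had 10.0 and 7.60 RPM on average, and both have the seed UGGUAGA, since the arms agree in sequence there. At miR-183-5p+7 the most frequent length was 17 nt in each library, and 46.2%, 45.4% and 56.0% of its value came from whole-number alignments, the remainder from reads divided among loci. At miR-182-5p+7 this share was 95.7%, 82.3% and 86.5%.

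The start between the hairpins, at position 30117303, had 54.9, 45.2 and 27.3 reads, all of 14 nt. None of its value came from whole-number alignments (0% in each library), so all of its reads were shared with other loci.

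Among 153 named starts with at least 1000 reads in every library, 3 had a most frequent length of 25 nt or more, and miR-182-5p was the most abundant of them.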
